A study of Homo sapiens with 18 samples.

Results

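The strength of the transcriptional response to lipopolysaccharide (LPS) was compared between a THP-1 line depleted of NR4A3 and its non-target control line. THP-1 is a human monocytic leukaemia cell line. Of the 18 RNA-seq libraries of the series, 12 were used, chosen by their labels: 3 of shNT cells without LPS, 3 of shNT cells with LPS, and 3 of each kind from shNR4A3 cells. Both lines had been transduced with lentiviral particles, carrying a non-target shRNA in shNT and an shRNA against NR4A3 in shNR4A3, and both were kept under puromycin selection. LPS was given at 2.5 μg/ml for 2 h, and control cells received none. The remaining 6 libraries, from shNR4A2 cells with and without LPS, served to choose and weight LPS-responsive genes. They also entered an alternative fit of all 18 libraries. As a model, each arm is a single stable line with its own shRNA, so an effect of losing NR4A3 and any other difference between the 2 lines cannot be told apart. The 12 libraries held 16171161 to 21602737 counted reads. Levels of single genes are given in TPM, a transcript's share of its library, which corrects for gene length and library size.

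LPS, a component of the outer membrane of gram-negative bacteria, is recognised on monocytes by TLR4 with its co-receptors CD14 and MD-2, and adaptors such as MyD88 carry the signal to the IKK complex and NF-kappaB. Within hours this induces cytokines, chemokines, survival genes and the inhibitors that later switch the response off, and a TRIF-dependent arm induces interferon beta and interferon-stimulated genes. NR4A1, NR4A2 and NR4A3 are orphan nuclear receptors that are themselves early response genes in this setting, and they bind a response element called the NBRE.

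The targeted transcript was lower in the shNR4A3 line in both states. NR4A3 (GRCh38 chr9:99821855-99866891) stood at 0.556, 0.693 and 0.512 TPM in the shNT control libraries and at 0.158, 0.108 and 0.0315 TPM in the shNR4A3 control libraries. With LPS it reached 30.9, 32.3 and 31.95 TPM in shNT cells against 17.03, 18.2 and 16.7 TPM in shNR4A3 cells. The lines did not overlap in either state, and NR4A3 rose with LPS in both of them. The log2 fold change of shNR4A3 against shNT was -2.47 ± 0.55 (SE) without LPS and -0.82 ± 0.15 with LPS (edgeR quasi-likelihood test, adjusted p = 0.000456 and 0.000189). The LPS responses of NR4A3 differed by 1.65 ± 0.38 (log2, SE; edgeR adjusted p = 0.541), a value for which the unstimulated level in shNR4A3 cells rested on 9 reads over 3 libraries. NR4A1 rose with LPS from 6.34 to 9.08 TPM in shNT controls up to 13.8 to 22.1 TPM, and from 4.02 to 8.37 TPM up to 16.9 to 20.0 TPM in shNR4A3 cells. NR4A2 rose from 2.83 to 4.16 TPM up to 51.3 to 74.7 TPM in shNT cells and from 2.51 to 3.31 TPM up to 38.3 to 60.8 TPM in shNR4A3 cells. For these 2 relatives the lines overlapped in both states, with a difference of the LPS responses of 0.40 ± 0.29 (log2, SE) for NR4A1 and -0.08 ± 0.26 for NR4A2.

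LPS changed many genes in both lines. Of 16428 genes tested, 767 were higher with LPS in shNT cells (4.67% of the genes tested) and 502 were lower (3.06%), each passing an adjusted p of 0.05 with a change of 2-fold or more. In shNR4A3 cells 1030 genes were higher (6.27%) and 687 were lower (4.18%). The induced programmes were largely shared: 719 genes were called higher in both lines, which is 93.7% of the shNT set and 69.8% of the shNR4A3 set. The other 311 genes of the shNR4A3 set and 48 of the shNT set were called in 1 line only, which by itself does not show that their responses differed. For the lowered genes the shared set was 373, which is 74.3% of the shNT and 54.3% of the shNR4A3 set.

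In a principal component analysis of 500 genes of highest variance, 91% of that variance lay on an axis that separated LPS from control libraries. On this axis the LPS libraries stood at 37.2, 31.0 and 37.0 in shNT and at 52.0, 37.9 and 48.6 in shNR4A3. Every shNR4A3 LPS library lay further from the controls than every shNT LPS library, and replicate 2 was the least displaced in both lines. The second component (4.34%) separated the 2 lines.

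To measure the strength of the response with genes chosen in libraries of neither line, LPS-induced and LPS-lowered genes were taken from the shNR4A2 libraries. This gave 812 induced and 547 lowered genes among those tested. The amplitude of a library is the slope of its log2 change from the control mean of its own line on the LPS log2 fold change of shNR4A2 cells, so that 0 is no response and 1 the response of the line that chose the genes, a size that the choice itself raises. Over the induced genes the shNT LPS libraries had amplitudes of 0.796, 0.723 and 0.786, with a mean of 0.769 ± 0.039 (SD, n = 3). The shNR4A3 LPS libraries had amplitudes of 0.970, 0.806 and 0.933, with a mean of 0.903 ± 0.086. The 6 control libraries lay between -0.0053 and 0.0099. The amplitude was therefore 1.17 times that of shNT cells, or 17.5% larger. The groups did not overlap, although the lowest shNR4A3 library (0.806) was close to the highest shNT library (0.796). Between libraries of the same replicate number the ratio was 1.22, 1.11 and 1.19 for numbers 1, 2 and 3. With induced genes called in shNT the ratio was 1.155 and with those called in shNR4A3 it was 1.185, and whether choosing by shNR4A2 leans to one line was not tested. No p-value was given to this score, and more responding cells and more RNA per responding cell cannot be told apart in bulk libraries.

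**Figure D1:**
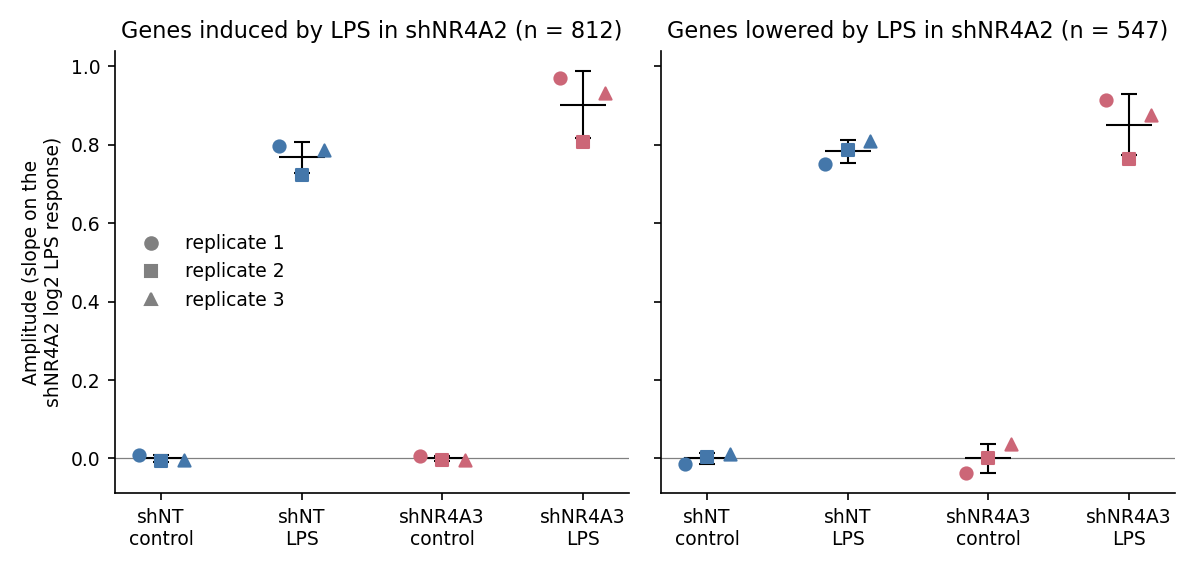
Amplitude of the LPS response (vertical axis, slope on the shNR4A2 log2 LPS response, no unit) in each of 12 libraries for 812 induced genes (left) and 547 lowered genes (right), with symbols for the replicate number and black bars for the mean ± SD of 3 libraries. Over induced genes all 3 shNR4A3 LPS libraries (0.806 to 0.970) sit above the shNT LPS libraries (0.723 to 0.796), while over lowered genes the lines overlap.

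The typical induced gene gave the same picture. The median log2 change over the 812 genes was 1.93, 1.64 and 1.85 in the shNT LPS libraries and 2.54, 1.98 and 2.41 in the shNR4A3 LPS libraries. The summed level of these genes was 16550, 14700 and 14740 TPM in shNT controls and 14310, 14710 and 14460 TPM in shNR4A3 controls. With LPS it was 85160, 76290 and 77920 TPM in shNT and 105400, 76560 and 91600 TPM in shNR4A3. By this sum, which the most abundant transcripts dominate, replicate 2 of shNR4A3 lay within the shNT range and the other 2 lay above it. In the lowered genes the amplitude was 0.752, 0.786 and 0.811 in shNT and 0.913, 0.763 and 0.877 in shNR4A3. The ratio of the means was 1.09, and the lines overlapped because of replicate 2 of shNR4A3. Between libraries of the same number this ratio was 1.215, 0.971 and 1.08, so number 2 went the other way.

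Gene by gene, the fitted LPS responses of the lines fell on a line steeper than equality. The slope of the shNR4A3 on the shNT log2 fold change was 1.12 over the induced genes, and 1.18 when taken as the inverse of the slope of shNT on shNR4A3, so that the 2 values bracket the steepness. The median LPS log2 fold change was 1.95 in shNT and 2.45 in shNR4A3, and the median of the gene-wise difference was 0.40, a 1.32-fold larger induction. The difference was above 0 for 658 of the 812 genes (81.0%), against 47.6% of all genes tested, whose median was -0.01. At an unadjusted p under 0.05, 163 induced genes (20.1%) had a larger response in shNR4A3 and 2 (0.246%) a smaller one, against 3.1% and 1.91% of all genes tested. Over the 547 lowered genes the median difference was -0.15, with 177 above 0, and 28 genes were below 0 and 5 above 0 at an unadjusted p under 0.05.

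**Figure D2:**
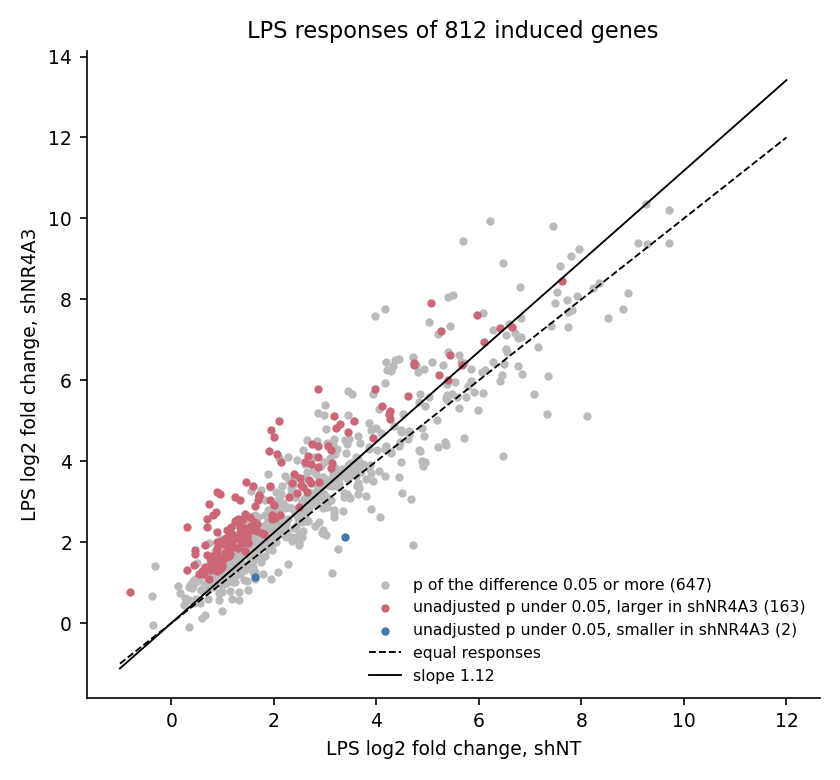
LPS log2 fold change in shNT (horizontal axis) against shNR4A3 (vertical axis) for 812 genes induced in shNR4A2 cells, 1 point per gene, with the line of equal responses dashed and the slope of 1.12 solid. Of the coloured points, with an unadjusted p under 0.05 for the difference, 163 lie above the dashed line and 2 below it.

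The larger response was seen over the whole range of inducibility and abundance. Among 361 genes induced between 2-fold and 4-fold in shNR4A2 cells the median difference was 0.29, among 266 genes of the middle range (log2 of 2 to 4) it was 0.44, and among the 185 most inducible genes it was 0.70. Relative to the size of the response the order was reversed. The slope of shNR4A3 on shNT was 1.22, 1.13 and 1.10 in these 3 ranges, and the share above 0 was 84.2%, 79.7% and 76.8%. By mean level, the median difference was 0.55 for 108 genes under 1 TPM, 0.48 for 340 genes between 1 and 10 TPM and 0.31 for 364 genes over 10 TPM. The best counted genes thus had the smallest median difference, but also the highest share above 0, at 311 of 364 (85.4%). The 586 protein-coding genes had a median of 0.36 and the 226 of other types, mostly of lower abundance, 0.50.

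Differences between responses can come from the unstimulated or the stimulated level, and over the induced genes the lines differed mainly in the stimulated one. Without LPS the median log2 fold change of shNR4A3 against shNT was 0.02 over the 812 genes, and 392 were below 0. With LPS the median was 0.44, and 675 genes were above 0. By the edgeR test 15 induced genes were higher in shNR4A3 without LPS (1.85%, against 3.42% of all genes tested) and 31 were lower (3.82%, against 2.92%). With LPS 213 were higher (26.2%, against 5.16%) and 15 were lower (1.85%, against 3.91%). Every shNR4A3 library exceeded every shNT library for 245 induced genes with LPS (30.2%, against 13.1% of all genes tested) and for 103 without LPS (12.7%, against 12.7%). The count of 213 moved with single libraries. It was 91 without shNT LPS replicate 2, and 92 and 129 without shNR4A3 LPS replicates 1 and 3. Without shNR4A3 LPS replicate 2 it was 332, and with a block for the replicate number it was 344. Genes called higher outnumbered those called lower in each of these fits. Of the 163 genes with a larger response at an unadjusted p under 0.05, 128 were below 0 without LPS and 151 above 0 with LPS. By the edgeR test 21 of them were lower in shNR4A3 without LPS (12.9%, against 2.92%) and 78 higher with LPS (47.9%, against 5.16%). These 163 were picked by the difference, a choice that itself favours low unstimulated and high stimulated levels.

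**Figure D3:**
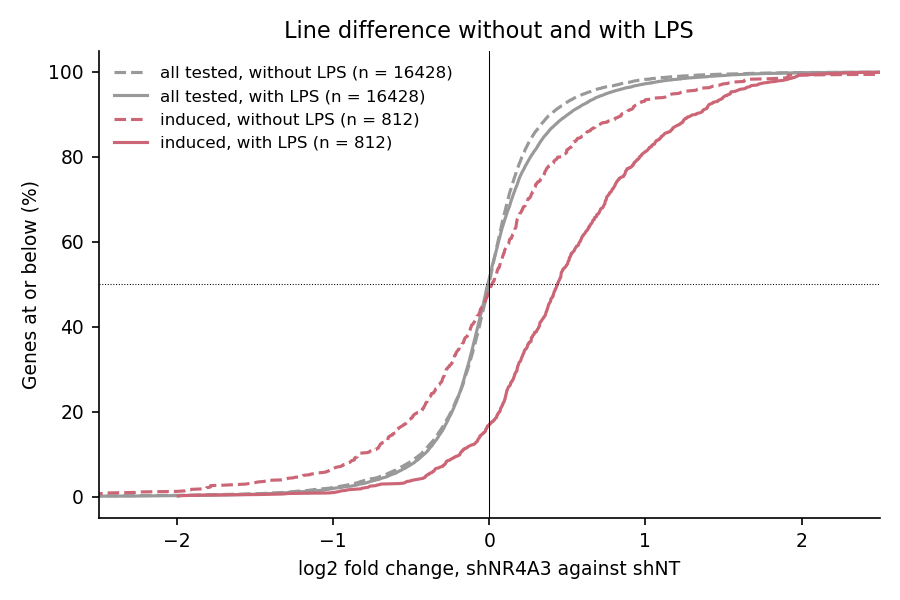
Share of genes (vertical axis, percent) at or below each log2 fold change of shNR4A3 against shNT (horizontal axis, drawn from -2.5 to 2.5) without LPS (dashed) and with LPS (solid), for 812 induced genes (red) and all 16428 genes tested (grey). The red solid curve is shifted to the right, with a median of 0.44, while the other 3 curves cross the middle near 0.

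For single genes, calls depended on the fit. In the edgeR fit no gene passed an adjusted p of 0.05 for the interaction of line and LPS (0.0%), and the lowest adjusted p was 0.129. At an unadjusted p under 0.05 there were 824 genes, 510 of them with a difference above 0. DESeq2 called 10 genes, and edgeR with a block for the replicate number called 22. The study does not say that a number marks the same experiment in every group. Leaving out shNR4A3 LPS replicate 2, the library with the weakest response of its line, gave 44 called genes, 42 of them above 0. The genes named next were the lowest in p among those responding to LPS in at least 1 line, and they are a ranking in this fit, although other fits called some of them.

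Among the larger responses, one set of genes started lower in shNR4A3 cells and with LPS caught up with shNT or passed it. TP53INP2, which acts in autophagy and as a nuclear coactivator, stood at 56.5, 46.2 and 61.5 TPM in shNT controls and at 27.3, 27.2 and 27.6 TPM in shNR4A3 controls. With LPS it stood at 133.0, 103.0 and 98.5 TPM in shNT and 166.1, 113.4 and 125.6 TPM in shNR4A3. The lines were apart without LPS (log2 -0.95, adjusted p = 0.00164) and overlapped with it, and the difference of the responses was 1.29 ± 0.22 (log2, SE; edgeR adjusted p = 0.16). IRS1, the adaptor of the insulin receptor, rose from 2.89, 3.68 and 2.81 to 9.84, 9.02 and 6.38 TPM in shNT cells. In shNR4A3 cells it rose from 1.54, 2.68 and 1.84 to 13.9, 13.1 and 11.1 TPM. Without LPS it was lower in every shNR4A3 library (log2 -0.59, edgeR adjusted p = 0.107). With LPS it was higher in every one (log2 0.66, edgeR adjusted p = 0.026), and the responses differed by 1.25 ± 0.27. ELL2, a transcription elongation factor, showed a difference of 0.97 ± 0.21, from 18.4 to 27.5 TPM without LPS in shNT against 12.04 to 13.2 TPM in shNR4A3. The processed pseudogene AL663070.1 (difference 1.26 ± 0.21) started lower in shNR4A3 as well, but its reads can be shared with a parent gene and its value is uncertain.

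In a second set the lines overlapped without LPS, and shNR4A3 was higher with it. KDM6B (ENSG00000132510, chr17:7839904-7854796), a demethylase of lysine 27 of histone H3 that is known as an LPS-induced gene of macrophages, stood at 15.3, 15.8 and 18.2 TPM in shNT controls and 12.3, 16.9 and 14.6 TPM in shNR4A3 controls. With LPS it reached 74.4, 77.2 and 55.7 TPM in shNT and 107.5, 112.3 and 106.5 TPM in shNR4A3. The control groups overlapped and the LPS groups did not, with a line difference of 0.72 with LPS (log2, adjusted p = 0.000544) and a difference of the responses of 0.84 ± 0.16. The long non-coding RNA LINC01547 rose from 8.93, 8.23 and 7.45 to 15.0, 18.7 and 14.1 TPM in shNT cells. In shNR4A3 cells it rose from 7.20, 9.80 and 7.27 to 39.7, 33.5 and 33.7 TPM. Its LPS level was higher in every shNR4A3 library (log2 1.23, adjusted p = 5.8e-05). BIRC3, a ubiquitin ligase that inhibits apoptosis, reached 35.6, 31.8 and 33.0 TPM in shNT and 56.8, 48.1 and 64.7 TPM in shNR4A3 from about 1 TPM or less, with a difference of 1.19 ± 0.27. DDX60L, a relative of an interferon-induced helicase, rose to 41.5, 42.3 and 42.0 TPM in shNT and to 76.6, 53.5 and 65.4 TPM in shNR4A3, with a difference of 0.78 ± 0.18.

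The promoters of 3 of these genes are shown, with that of GCNT1, whose difference was negative. They run from 250 bases before to 50 bases after the RefSeq start (GRCh38.p14). The choice was made among the responses of lowest p that the sequence table covers, leaving out genes with few reads. The gene models behind the counts begin downstream of the RefSeq start for KDM6B (chr17:7839904) and GCNT1 (chr9:76419850), so those windows lie outside the gene models and need not be the promoter in use. They were searched on both strands for the NBRE (AAAGGTCA), an NF-kappaB core (GGGNNTTTC), AP-1 (TGANTCA), CRE (TGACGTCA) and an interferon response core (GAAANNGAA), and a match is in capitals.
TP53INP2, chr20:34704094-34704393, plus strand: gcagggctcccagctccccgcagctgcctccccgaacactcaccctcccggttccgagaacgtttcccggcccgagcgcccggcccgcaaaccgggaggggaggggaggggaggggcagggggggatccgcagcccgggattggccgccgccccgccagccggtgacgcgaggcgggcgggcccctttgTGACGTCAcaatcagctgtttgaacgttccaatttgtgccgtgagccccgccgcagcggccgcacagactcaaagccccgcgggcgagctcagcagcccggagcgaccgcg
LINC01547, chr21:44939864-44940163, minus strand: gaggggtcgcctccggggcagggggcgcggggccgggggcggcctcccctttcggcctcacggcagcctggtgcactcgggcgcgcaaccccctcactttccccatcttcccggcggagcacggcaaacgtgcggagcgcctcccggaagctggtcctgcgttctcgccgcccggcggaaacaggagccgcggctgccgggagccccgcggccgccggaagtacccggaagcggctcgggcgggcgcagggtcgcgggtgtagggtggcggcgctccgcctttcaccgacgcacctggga
KDM6B, chr17:7833967-7834266, plus strand: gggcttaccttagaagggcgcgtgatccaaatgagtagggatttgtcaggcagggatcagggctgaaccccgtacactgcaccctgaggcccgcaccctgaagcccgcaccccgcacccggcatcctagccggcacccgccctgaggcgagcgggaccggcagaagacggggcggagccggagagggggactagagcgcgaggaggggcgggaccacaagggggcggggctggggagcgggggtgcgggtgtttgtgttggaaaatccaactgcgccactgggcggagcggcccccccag
GCNT1, chr9:76393619-76393918, plus strand: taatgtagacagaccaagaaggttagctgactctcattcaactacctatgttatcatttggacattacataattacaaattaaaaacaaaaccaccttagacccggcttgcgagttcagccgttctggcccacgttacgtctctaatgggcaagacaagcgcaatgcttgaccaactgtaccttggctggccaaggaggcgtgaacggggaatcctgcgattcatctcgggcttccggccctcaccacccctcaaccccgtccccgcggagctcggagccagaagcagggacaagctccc

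The only match in these windows was a CRE in TP53INP2, beginning 61 bases before the start. Of the 812 induced genes 508 had a promoter in the table, and of the 163 with a larger response at an unadjusted p under 0.05, 114 did. The NBRE letters were found in 1.21% of 27305 promoters, in 1.18% of the induced set and in 1.75% (2 promoters) of the 114. The NF-kappaB letters were found in 4.73%, 8.46% and 8.77%, the AP-1 letters in 7.76%, 7.87% and 7.89%, and the interferon letters in 8.29%, 7.28% and 6.14%. The CRE letters were found in 1.98% of all promoters, 3.15% of the induced set and 1.75% of the 114. The NBRE and CRE shares of the 114 rest on 2 promoters each, and a match describes letters only, not binding.

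**Figure D4:**
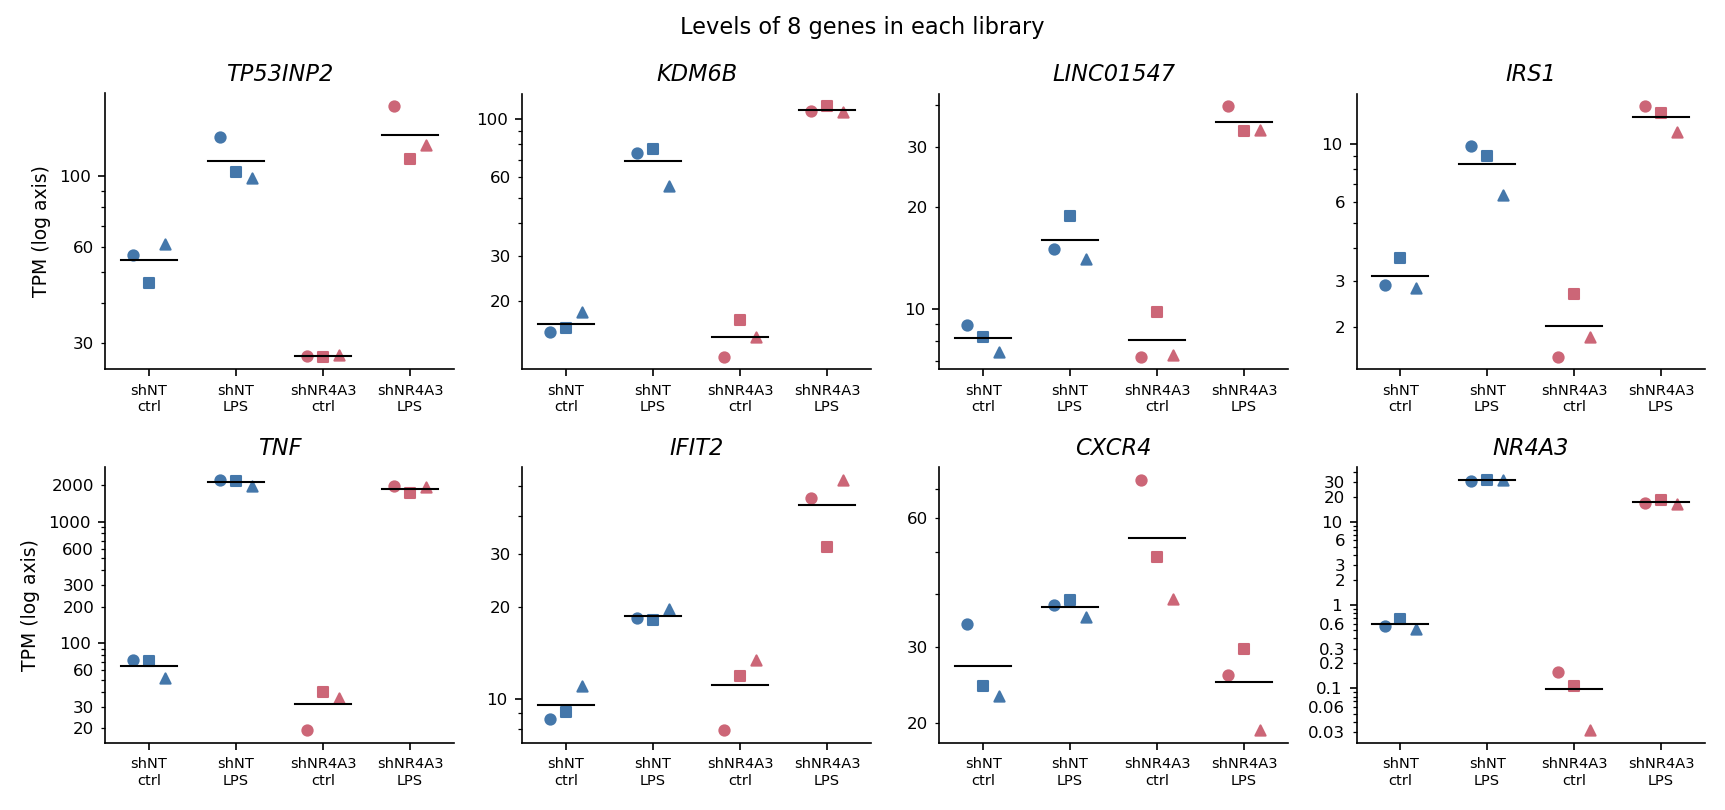
Levels in TPM (vertical axes, log scale, different for each panel) of 8 genes in the 12 libraries, with circles, squares and triangles for replicates 1, 2 and 3 and a black line at the mean of 3. TP53INP2, IRS1 and TNF start lower in shNR4A3 controls, KDM6B, LINC01547 and IFIT2 end higher in shNR4A3 with LPS, and CXCR4 moves in opposite directions in the 2 lines.

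Cytokines and chemokines, the secreted products of the response, had members of both kinds. Beside the list counts from here on, the shares over all genes tested were 4.67% and 6.27% called higher with LPS in shNT and shNR4A3, and 3.1% above and 1.91% below 0 at an unadjusted p under 0.05 for the difference. Of 21 cytokine genes tested, 14 were called higher with LPS in shNT and 15 in shNR4A3, the median difference was 0.21, and 6 were above 0 and none below at an unadjusted p under 0.05. The difference was above 0 for 14 of the 21, and for 10 of the 15 called higher in either line. With LPS 7 were higher in shNR4A3 (33.3%, against 5.16% of all genes tested) and 1 lower (4.76%, against 3.91%). The lower one was LIF (log2 -1.32, edgeR adjusted p = 0.00245), with a difference of -0.60 ± 0.58. TNF stood at 72.3, 71.9 and 51.6 TPM in shNT controls and at 19.3, 39.8 and 35.2 TPM in shNR4A3 controls. With LPS it stood at 2221, 2168 and 1964 TPM in shNT and at 1964, 1712 and 1929 TPM in shNR4A3. The larger fold change of TNF (difference 0.90 ± 0.26) thus came with a lower unstimulated level (log2 -1.02, adjusted p = 0.00492) and no higher stimulated one. IL1B rose from 27.6, 19.6 and 25.9 to 4935, 3686 and 3715 TPM in shNT, and from 17.5, 18.1 and 18.3 to 6508, 4415 and 5054 TPM in shNR4A3, with a difference of 0.83 ± 0.23. LTA, lymphotoxin alpha, had a difference of 1.33 ± 0.49 at 7.78 to 11.02 TPM with LPS in shNT and 10.5 to 24.4 TPM in shNR4A3, so that the LPS groups overlapped. IL6 had 0 counts in all shNT controls and in 2 of 3 shNR4A3 controls, so no fold change is given for its response. With LPS IL6 was at 3.62, 1.31 and 2.26 TPM in shNT and at 12.5, 4.95 and 6.96 TPM in shNR4A3, higher in every library of the depleted line (log2 1.83, adjusted p = 0.0129).

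Among 11 CC chemokine genes 7 were called higher with LPS in shNT and 8 in shNR4A3, with a median difference of 0.27. CCL2, the monocyte attractant, rose from 14.6, 9.12 and 8.62 to 140.9, 80.1 and 85.9 TPM in shNT and from 3.41, 3.42 and 3.81 to 111.0, 55.6 and 73.7 TPM in shNR4A3. Its difference of 1.28 ± 0.46 again came with a lower unstimulated level (log2 -1.56, adjusted p = 0.0233), while the LPS groups overlapped. CCL20 reached 1540, 1137 and 1272 TPM in shNT and 1447, 785.7 and 1123 TPM in shNR4A3, with a difference of 0.42 ± 0.41. CCL5 was lower in shNR4A3 in both states, at 278.7 to 292.9 against 455.6 to 572.2 TPM without LPS, and its response differed by 0.31 ± 0.17. CCL4 and its near-identical copies share reads, and its difference of 0.52 ± 0.46 is uncertain for that reason too. Of 9 CXC chemokine genes 8 were called in each line, none differed at an unadjusted p under 0.05, and the median difference was 0.15 (0.11 over those called in either line).

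Interferon and interferon-stimulated genes were the list with the most members higher in the stimulated shNR4A3 cells. Of 44 genes tested, 8 were called higher with LPS in shNT and 12 in shNR4A3. The difference of the responses was above 0 for 39 of the 44, with a median of 0.28, and 11 were above 0 and none below at an unadjusted p under 0.05. Between the lines, 13 members were higher in shNR4A3 without LPS (29.5%, against 3.42% of all genes tested) and 34 with LPS (77.3%, against 5.16%), and 1 and 0 were lower (2.92% and 3.91% of all genes tested). The median log2 line difference over the 44 was 0.34 without LPS and 0.60 with LPS. Without LPS only 5 of them were below 0, so the lines already differed over this list before stimulation. The count of 34 was 19 without shNT LPS replicate 2 and 21 without shNR4A3 LPS replicate 3. IFIT2, an antiviral RNA-binding protein, rose from 8.61, 9.09 and 11.1 to 18.4, 18.2 and 19.8 TPM in shNT and from 7.92, 11.9 and 13.5 to 45.6, 31.5 and 52.5 TPM in shNR4A3. The control groups overlapped, and with LPS every shNR4A3 library was above every shNT library (log2 1.27, adjusted p = 0.000525), with a difference of the responses of 1.00 ± 0.28. IFIT3, of the same family, was already higher in shNR4A3 controls (24.3, 35.7 and 27.5 against 20.2, 20.5 and 21.5 TPM) and reached 86.6, 61.3 and 80.9 TPM against 33.9, 32.01 and 35.2 TPM. SAMD9, an antiviral factor, rose in shNR4A3 cells from 19.5, 21.98 and 27.4 to 29.6, 23.7 and 32.8 TPM, and was at 19.8, 19.7 and 20.8 TPM in shNT cells with LPS. IFNB1, the interferon made first after LPS, had 0 counts in all 6 controls and stood with LPS at 2.03, 3.99 and 2.81 TPM in shNT and 3.44, 4.41 and 2.34 TPM in shNR4A3, so that the lines overlapped.

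**Figure D5:**
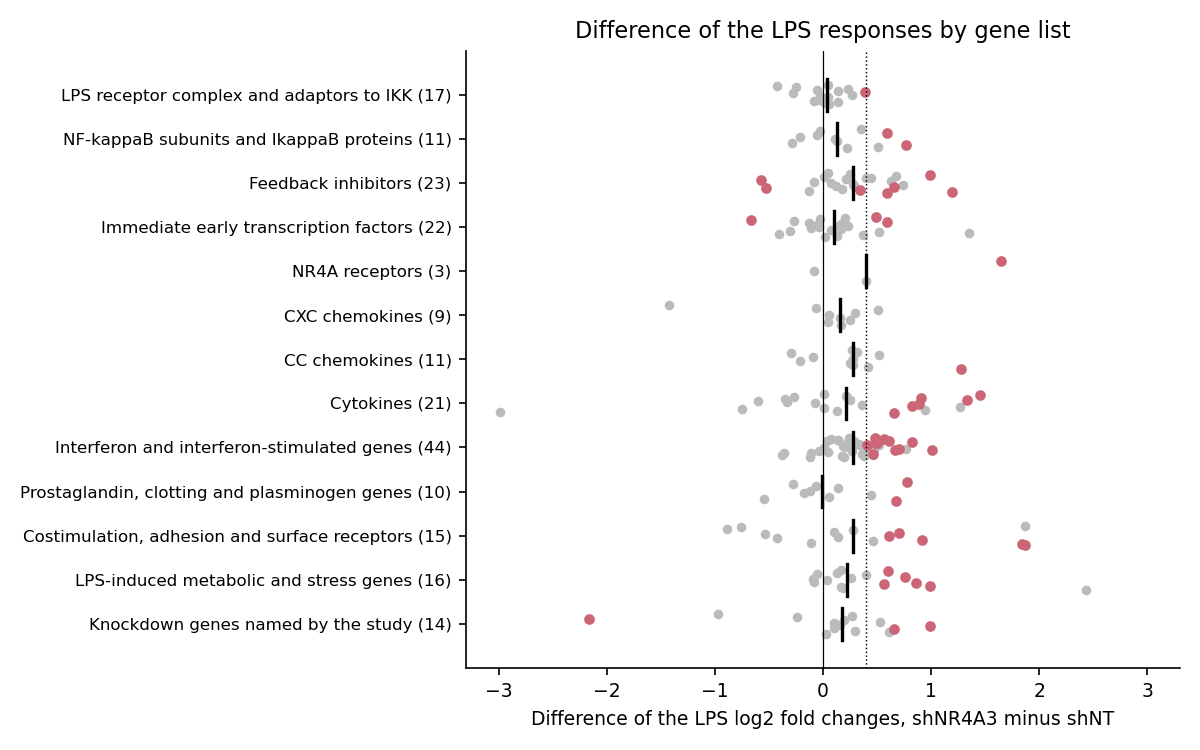
Difference of the LPS log2 fold changes, shNR4A3 minus shNT (horizontal axis), of each tested member of 13 gene lists (rows, number tested in parentheses), with red points for an unadjusted p under 0.05, black ticks at each list's median and a dotted line at 0.40, the median of the 812 induced genes. List medians run from -0.01 to 0.40, and most red points lie to the right of 0.

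Upstream of these targets, few receptor pathway genes were called higher with LPS at 2-fold or more, while most of the NF-kappaB family were. Of 17 genes of the LPS receptor complex and its adaptors 3 were called higher with LPS in each line. The adaptor TIRAP fell, by log2 -0.936 in shNT and -1.185 in shNR4A3, and was called lower in shNR4A3. Others, such as TBK1 (log2 0.471 and 0.417), passed the adjusted p in both lines with changes under 2-fold. Of the differences 10 were above 0, and the median was 0.04 (0.14 over the 4 called higher in either line). TAB2, an adaptor of the TAK1 kinase, reached 92.7, 92.3 and 96.0 TPM in shNT and 171.8, 121.4 and 158.0 TPM in shNR4A3, with a difference of 0.39 ± 0.17. MYD88, the main TLR adaptor, stood with LPS at 73.6, 63.7 and 62.9 TPM in shNT and at 93.4, 73.6 and 87.4 TPM in shNR4A3 (line difference 0.41, adjusted p = 0.0294). TLR4 itself, named here after its values were seen, rose by 1.09 in shNT and by 0.66 in shNR4A3 on the log2 scale, a difference of -0.43 ± 0.25. Of 11 NF-kappaB subunits and inhibitors 10 were called higher in each line, with a median difference of 0.13 (0.18 over those called in either line). NFKB2 (p100) had a difference of 0.77 ± 0.26 and REL one of 0.60 ± 0.23, while NFKBIA, the inhibitor IkappaB alpha, had one of -0.28 ± 0.14. NFKBIA stood with LPS at 1909, 1783 and 1644 TPM in shNT and at 1818, 1636 and 1674 TPM in shNR4A3, so that the lines overlapped.

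Most feedback inhibitors had differences above 0, with exceptions. Of 23 genes 14 were called higher with LPS in shNT and 13 in shNR4A3, 19 differences were above 0 with a median of 0.28, and 5 were above and 2 below 0 at an unadjusted p under 0.05. Of the 14 called higher in either line 13 were above 0, with a median of 0.37, against 0.40 over the 812 induced genes. DUSP2, a phosphatase of MAP kinases, reached 27.7, 42.2 and 26.5 TPM in shNT and 46.1, 55.2 and 43.2 TPM in shNR4A3, with a difference of 0.65 ± 0.21. DUSP10, another one, had a difference of -0.53 ± 0.16, and its unstimulated level was higher in shNR4A3, at 45.9, 49.1 and 51.0 against 30.4, 24.4 and 27.0 TPM (log2 0.89, adjusted p = 0.000289). TNIP3, a partner of A20, stood with LPS at 70.4, 29.7 and 54.5 TPM in shNR4A3 against 26.8, 17.98 and 21.8 TPM in shNT (log2 1.29, adjusted p = 0.00387), from under 0.25 TPM without LPS. Among 22 immediate early transcription factors the median difference was 0.10. KLF10 (0.59 ± 0.22) and MYC (0.49 ± 0.21) were above 0 and KLF4 (-0.67 ± 0.27) below, while EGR2 (-0.41 ± 0.27) was the most inducible of them. MYC fell with LPS in both lines, from 355.7 to 449.7 TPM over the 6 controls down to 45.8 to 58.5 TPM in shNT and 51.7 to 81.0 TPM in shNR4A3.

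Surface molecules and metabolic genes of the activated monocyte added further members. Of 15 costimulatory, adhesion and surface genes 11 were called higher with LPS in shNT and 12 in shNR4A3, with a median difference of 0.28, and 5 were above 0 and none below at an unadjusted p under 0.05. Between the lines 7 of the 15 were higher in shNR4A3 with LPS (46.7%, against 5.16% of all genes tested) and 1 without (6.67%, against 3.42%). CD44, the hyaluronan receptor, rose from 50.8, 41.8 and 41.7 to 84.7, 70.3 and 81.1 TPM in shNT and from 37.2, 41.6 and 46.0 to 159.0, 99.1 and 151.4 TPM in shNR4A3, with a difference of 0.92 ± 0.24. CD83, a marker of mature dendritic cells, reached 558.0, 544.8 and 500.5 TPM in shNT and 911.2, 706.3 and 811.7 TPM in shNR4A3 from 14.3 to 15.3 TPM in both, with a difference of 0.61 ± 0.16. Both lay higher in every shNR4A3 LPS library than in every shNT one. CCRL2, an atypical chemoattractant receptor, had a difference of 1.84 ± 0.46 at 3.99 to 4.78 TPM with LPS in shNT and 4.44 to 7.85 TPM in shNR4A3. Of 16 metabolic and stress genes 9 were called higher in shNT and 11 in shNR4A3, and 5 were above 0 at an unadjusted p under 0.05. GCH1, the entry enzyme of tetrahydrobiopterin synthesis, reached 108.4, 90.3 and 123.7 TPM in shNT and 223.6, 118.3 and 186.7 TPM in shNR4A3 (difference 0.99 ± 0.35). HIF1A had a difference of 0.56 ± 0.17 and the cystine transporter gene SLC7A11 one of 0.60 ± 0.23. ACOD1, the enzyme that makes itaconate, was at 6.96, 2.73 and 6.28 TPM with LPS in shNT and at 26.9, 8.29 and 17.2 TPM in shNR4A3 (log2 1.79, adjusted p = 0.0101), and was listed at 0 in 4 of the 6 controls.

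Prostaglandin, clotting and plasminogen genes had no common direction. Of 10 genes tested 2 were called higher with LPS in shNT and 4 in shNR4A3, and the median difference was -0.01. F3, tissue factor, started lower in shNR4A3 at 93.6, 103.6 and 75.7 against 219.4, 167.5 and 188.7 TPM and rose to 176.9, 227.2 and 164.1 against 266.9, 259.0 and 225.5 TPM, with a difference of 0.68 ± 0.17. THBD, thrombomodulin, fell with LPS in both lines, from 268.6 to 299.9 TPM down to 32.2 to 55.0 TPM in shNT and from 338.1 to 405.0 TPM down to 74.7 to 139.1 TPM in shNR4A3. The fall was smaller in shNR4A3, with a difference of 0.78 ± 0.29.

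Some genes had a difference of the responses below 0, and several of them fell further with LPS in shNR4A3. CXCR4 (ENSG00000121966, GRCh38 chr2:136114349-136118165), the receptor of CXCL12, rose with LPS from 34.04, 24.4 and 23.2 to 37.7, 38.7 and 35.4 TPM in shNT and fell from 73.6, 48.6 and 38.9 to 25.8, 29.7 and 19.3 TPM in shNR4A3. Every shNR4A3 library was above every shNT library without LPS and below with LPS, and the difference was -1.56 ± 0.31 (edgeR adjusted p = 0.322). GCNT1, which branches O-glycans, fell from 22.6, 18.3 and 20.0 to 11.97, 10.8 and 9.66 TPM in shNT and from 32.8, 31.6 and 27.0 to 10.2, 10.9 and 8.19 TPM in shNR4A3. It started higher in shNR4A3 and overlapped the shNT libraries after LPS, with a difference of -0.73 ± 0.18. NR2F6, an orphan nuclear receptor, fell from 55.0, 67.5 and 54.4 to 33.1, 40.6 and 27.3 TPM in shNT and from 31.9, 40.4 and 33.5 to 8.08, 13.1 and 11.3 TPM in shNR4A3, with a difference of -0.88 ± 0.22. FFAR4, a receptor of long-chain fatty acids, fell from 2.72 to 3.56 TPM down to 0.357 to 1.15 TPM in shNT and from 2.23 to 3.34 TPM down to 0.0412 to 0.165 TPM in shNR4A3, so that its difference of -2.87 ± 0.64 rests on few reads. EPS8L3 and NUDT16P1 also ranked here at levels under 4 TPM, with differences of -2.02 ± 0.43 and -2.17 ± 0.52. CLDN3 had 0 counts in the 3 shNR4A3 LPS libraries and stood at 1.09 to 1.89 TPM in the shNT LPS libraries, and no fold change is given. FRAT2, TMEM223 and SLC29A3 fell with LPS in both lines, with differences of -0.48 ± 0.14, -0.65 ± 0.19 and -0.94 ± 0.28.

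Of 14 genes that the study names for their response to knockdown of either NR4A2 or NR4A3, 12 differed between shNR4A3 and shNT without LPS, 4 of them higher and 8 lower (against 3.42% and 2.92% of all genes tested). With LPS 12 differed as well, 4 higher and 8 lower (against 5.16% and 3.91%), and POU4F2 and AKR1C2 passed the test in neither state. These were chosen by the study on these samples, so their direction is no independent evidence. CKAP4, a protein of the endoplasmic reticulum, was at 381.3, 404.4 and 391.9 TPM in shNT controls and 32.2, 52.6 and 38.3 TPM in shNR4A3 controls, and its LPS response differed by 0.29 ± 0.18. PRDM6 was at 1.92, 1.87 and 2.05 against 16.6, 17.7 and 15.3 TPM, with a response difference of 0.27 ± 0.20, and for NCAM1 the difference was 0.20 ± 0.28. CTGF, a matricellular growth factor, was lower in shNR4A3 both without LPS (4.01, 5.996 and 4.26 against 17.7, 20.6 and 18.1 TPM) and with LPS (724.5, 655.5 and 546.7 against 1841, 1720 and 1341 TPM), with a difference of 0.66 ± 0.22.

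All 12 markers of THP-1 monocytic cells were present, and 3 of them were higher in unstimulated shNR4A3 cells (against 3.42% of all genes tested). With LPS the same 3 and SPI1, a myeloid transcription factor (log2 0.55, adjusted p = 0.00961), were higher (against 5.16%). LYZ, lysozyme, stood at 198.3, 176.9 and 202.2 TPM in shNT controls and at 1040, 707.5 and 901.2 TPM in shNR4A3 controls (log2 2.26, adjusted p = 3.88e-07). CSF1R (log2 1.02, adjusted p = 0.000306) and ITGAM (0.81, adjusted p = 0.0277) were higher as well. CD14, the co-receptor of LPS, stood at 32.2, 18.2 and 17.4 TPM against 53.3, 31.4 and 35.2 TPM, an overlap at the margin with an adjusted p of 0.143. The summed level of the 12 markers was 2488, 2526 and 2169 TPM in shNT controls and 3651, 3326 and 3188 TPM in shNR4A3 controls. Most of this gap was LYZ, whose mean went from 192.5 to 882.9 TPM, while CEBPA, the most abundant marker, was at 1102 and 1137 TPM. The part of these markers in the stronger response was not tested. Markers of other cells stayed low: MS4A1 had no reads, CD3E and CD2 were under 0.25 TPM in the mean of every group, and APOE, the most abundant macrophage marker, was at 26.3 TPM in shNT and 12.5 TPM in shNR4A3 controls. Other macrophage markers had means in the opposite order at low levels, with C1QA at 0.96 and 3.20 TPM, C1QC at 0.643 and 2.68 TPM, MARCO at 1.43 and 2.41 TPM, CD163 at 0.399 and 0.643 TPM and MSR1 at 0.268 and 0.564 TPM.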

How the data were processed

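Poly(A)-selected RNA was sequenced as paired 150-base reads from 18 libraries, of which 12 (shNT and shNR4A3, 3 in each of 4 groups) were compared. The deposited values are whole-number counts per gene, which the authors made without normalization. The submitters' processing notes name Trimmomatic 0.36, STAR 2.5.2b, featureCounts of Subread 1.5.2 and the build GRCh38; strand settings are not given in the sources used here, so that antisense and overlapping genes cannot be told apart. Symbols were matched from GENCODE 29 for 56898 of 57500 genes.

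Counts were filtered (filterByExpr), scaled by TMM and tested by the quasi-likelihood test of edgeR 4.0.16 in 1 fit of the 12 libraries, with Benjamini-Hochberg adjustment over 16428 genes. The interaction is the LPS log2 fold change in shNR4A3 minus that in shNT, and values after ± are SE unless said. TPM were computed from the deposited counts and gene lengths. Amplitudes used log2 CPM with a prior count of 2, and no test. DESeq2 1.42.0, RLE size factors, no filter, all 18 libraries, a replicate block and leaving out each library were tried. The fitting code was run on simulated counts of well counted genes, with a fixed dispersion and no replicate effect. That run does not give the power of the interaction test in these data. Exact permutation of 3 against 3 libraries cannot go below p = 0.1 and was not used.

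Named genes were those called in the interaction by edgeR, DESeq2 or the blocked fit, the 10 lowest unadjusted p in each direction among LPS-responsive genes, the 3 lowest of each list with its most inducible member, and genes fixed by the study. The comparison, the members and the gene lists were chosen with earlier results of these data known. The study describes independent experiments, while the labels number the replicates and name no separate cultures, and p-values measure the spread between these libraries. Levels below 1 TPM rest on few reads and are imprecise.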

Additional observations from a re-analysis of the deposited data

Results flagged for a closer look

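In 3 genes, by their TPM, the LPS libraries of one line all lay above and those of the other all lay below the control libraries of their own line. By the edgeR test CXCR4 changed in both lines, rising in shNT (adjusted p = 0.0354) and falling in shNR4A3 cells (adjusted p = 0.00468), a difference of -1.56 between the log2 responses. The long non-coding RNA LINC01268 went from 25.1, 22.6 and 22.9 to 21.1, 19.4 and 17.3 TPM in shNT and from 16.9, 16.5 and 13.5 to 30.8, 26.7 and 28.0 TPM in shNR4A3, a difference of 1.17 and the lowest adjusted p of all genes (0.129). Its shNT response did not pass the test (log2 -0.07, adjusted p = 0.735). KIAA1551 went from 58.6, 43.0 and 55.7 to 35.0, 35.0 and 29.4 TPM in shNT and from 38.2, 35.3 and 39.2 to 71.8, 41.7 and 48.3 TPM in shNR4A3, a difference of 1.20, and its shNT response did not pass the test either (log2 -0.45, adjusted p = 0.0781). None of the 3 passed the adjusted p of the main edgeR interaction test. DESeq2 and the edgeR fit with a replicate block called all 3.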

How the results depend on the processing

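The count of interaction calls, 0 by edgeR, was 10 by DESeq2, 138 without the filter on low counts, 22 with a replicate block, and 0 to 44 over the fits that left out each library, where the 44 came without shNR4A3 LPS replicate 2 and the other 11 gave 0. The limit set for pairing was a correlation of deviations above 0.1 in every same-numbered pair of different groups, and 16 of 18 pairs met it. The correlations were all above 0 (0.0266 to 0.275), with a mean of -0.0817 between different numbers. All 12 of 12 libraries correlated best with their own number. The data thus hint at a shared replicate effect, which the SE and p-values of the main fit leave out. The study describes independent experiments but not that a number marks the same one in every group. With the replicate block the lines differed in 2283 genes without LPS (1042 without the block) and 2926 with LPS (1490), and 344 induced genes were higher in shNR4A3 with LPS (213). Leaving out each library gave 516 to 1194 and 756 to 1832 genes for these line differences, 91 to 332 induced genes and 19 to 35 interferon list members, the last 2 counts being alternatives chosen after seeing the data. The amplitude ratio over induced genes was above 1 in each alternative, at 1.13 for genes of at least 5 TPM, 1.28 by the median and 1.13 to 1.24 over the libraries left out, and so was that over lowered genes (1.02 to 1.19). The slope was 1.12, 1.25 as a ratio of medians and 1.08 to 1.16 over the libraries left out. The counts of LPS-responsive genes stayed within 1.5 times in each alternative run. Of the 65 genes whose difference was recomputed in each fit, only NR4A2 changed its sign, which ran from -0.26 to 0.048 over the libraries left out and was 0.048, 0.036, 0.025 and 0.039 without shNT control replicate 2, shNT LPS replicate 2, shNR4A3 control replicate 3 or shNR4A3 LPS replicate 3. Depth limits genes under 1 TPM most.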

Other observations

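Genes outside the pathway lists that had a larger response in shNR4A3 cells included regulators of survival, receptors and signalling proteins. BCL2A1, an anti-apoptotic relative of BCL2 and an NF-kappaB target, rose from 11.3, 10.7 and 8.38 to 268.7, 196.4 and 232.3 TPM in shNT and from 5.86, 3.74 and 3.11 to 397.4, 200.2 and 335.2 TPM in shNR4A3, with a difference of 1.69 ± 0.45 (log2, SE). MARCKS, a substrate of protein kinase C, reached 192.1, 132.6 and 171.8 TPM in shNT and 420.4, 184.0 and 367.7 TPM in shNR4A3, with a difference of 1.23 ± 0.36. In both genes replicate 2 of shNR4A3 lay among the shNT LPS libraries. ACVR2A, an activin receptor, reached 23.8, 16.95 and 22.2 TPM in shNT and 42.3, 27.5 and 40.0 TPM in shNR4A3 without overlap, with a difference of 1.09 ± 0.30. GPR132, a G protein-coupled receptor, reached 123.4, 100.3 and 67.0 TPM against 191.2, 158.9 and 134.7 TPM (0.84 ± 0.27), and PTAFR, the receptor of platelet-activating factor, 12.6, 9.11 and 11.7 TPM against 20.8, 12.5 and 19.6 TPM (1.06 ± 0.35). The 5 were named because the edgeR fit with a replicate block called them, and none passed the adjusted p of the interaction in the fit without it.

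TLR7, an endosomal receptor of single-stranded RNA, was higher in shNR4A3 cells in both states, at 0.88, 0.869 and 1.07 against 0.438, 0.16 and 0.219 TPM without LPS and at 13.8, 14.1 and 23.1 against 8.20, 10.1 and 11.8 TPM with LPS. Its difference of the responses was -0.97 ± 0.49. KANK1, a regulator of the actin cytoskeleton, fell with LPS in shNT from 13.02, 15.1 and 15.8 to 8.14, 7.10 and 7.12 TPM, while shNR4A3 cells held 6.39, 8.17 and 9.10 TPM without and 10.0, 6.55 and 9.87 TPM with LPS, a difference of 1.15 ± 0.23. The long non-coding RNA AP000439.3 was at 1.35 to 2.59 TPM in shNT over both states and fell from 2.94, 3.14 and 3.02 to 1.01, 1.03 and 0.916 TPM in shNR4A3. HUNK and MCF2, which the study names as sensitive to the knockdown, were far lower in shNR4A3 in both states (log2 -3.06 and -4.27 without LPS), with differences of the responses of 0.99 ± 0.42 and 0.53 ± 0.62 at levels under 0.5 TPM in that line.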
